A study of Mus musculus with 2 samples.

Results

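Foxp3+ T cells of the proximal small intestine were followed in single-cell RNA sequencing libraries from 2 Villin-CreERT2 Apc fl/fl (APC) mice. A cell barcode was counted as a Foxp3+ T cell when it held at least 1 unique molecular identifier (UMI, a tag that marks 1 captured RNA molecule) of Ptprc, of the CD3 genes Cd3d, Cd3e or Cd3g, and of Foxp3, and none of Cd8b1 or Trdc. Members were thus chosen by their measured UMIs of these genes, which are not tested below. This gate found 67 barcodes among 14898 kept barcodes, 44 in mouse 1 and 23 in mouse 2. In these mice the villin promoter drives a tamoxifen-inducible Cre recombinase in intestinal epithelium, so epithelial cells, and not T cells, are the target of Apc deletion. The mice received 2 mg of tamoxifen intraperitoneally, 2 times at an interval of 24 h, and were sampled at day 4. Both mice carried the same alleles and had the same treatment, and no untreated or Cre-negative library was used here. All comparisons are therefore between classes of T cells within the same animals, and none is between genotypes.

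Regulatory T cells are CD4 T cells that restrain other immune cells, and the transcription factor Foxp3 defines them. They take up interleukin-2 through a high-affinity receptor that contains the Il2ra chain (CD25), compete for costimulation through Ctla4, and release cytokines such as interleukin-10. In the gut, some arise in the thymus and often carry Gata3 and Ikzf2 (Helios), and others are induced locally by the microbiota and often carry Maf.

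The libraries held 85670711 and 38716743 UMIs over 9645 and 8800 barcodes, and 7941 and 6957 barcodes passed the filters of the study. The 2 libraries shared 24 barcode sequences, and none of them was a Foxp3+ T cell. Deletion of the floxed gene was not checked here. Apc was seen at 67.3 and 60.8 CPM (UMIs scaled to a common library total) in epithelial barcodes. Whether these 3′ tags lie outside the deleted part was not tested. Foxp3+ T cells held a median of 4153 UMIs in mouse 1 and 3140 in mouse 2, against 5776 and 3484 in the 193 and 109 Cd4+ comparison cells, which had at least 1 UMI of CD3 and of Cd4 and none of Foxp3.

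Foxp3+ T cells made up 1.19% of the 3700 T-cell barcodes of mouse 1 (exact 95% binomial interval 0.865 to 1.59%) and 0.424% of the 5428 of mouse 2 (0.269 to 0.635%), a mean of 0.806% ± 0.541 (SD, n = 2). Intervals here and below cover counting error only, and with 2 mice of 1 group no test between mice was made. The share depended on depth: when every barcode was thinned to 1000 UMIs, 8 and 9 Foxp3+ T cells were left in a single draw, 0.311% and 0.196% of T-cell barcodes.

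The gate rests on few molecules. The members held 102 and 57 Foxp3 UMIs in all. Of the 44 barcodes of mouse 1, 15 held exactly 1 Foxp3 UMI and 29 held at least 2, and of the 23 of mouse 2 these counts were 14 and 9. The highest count in 1 barcode was 6 in mouse 1 and 7 in mouse 2. Stray Foxp3 molecules were rare elsewhere. Foxp3 was seen in 0 of 1922 and 0 of 548 B-lineage barcodes, which allows shares of up to 0.156% and 0.547% when 3 counts are taken as the limit of a count of 0 (exact 95% upper limits 0.192% and 0.671%). These barcodes were deep, with medians of 20662.5 and 19417 UMIs. It was seen in 0.152% and 0.222% of T-cell barcodes with Cd8b1 and in 0.127% and 0.215% of those with Trdc, against 15.1% and 12.1% of those with Cd4 and neither Cd8b1 nor Trdc. Cd4 itself was seen in 56.8% and 47.8% of Foxp3+ T cells, and Cd8a in 9.09% and 17.4%.

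The members were described with 5 genes that the gate did not use. They were the checkpoint receptor Ctla4, the TNF-family receptors Tnfrsf4 (OX40) and Tnfrsf18 (GITR), the costimulatory receptor Icos and Il2ra. These genes were chosen with earlier results of these data known, so they are no independent test of the label. At least 3 of the 5 were seen in 35 of 44 Foxp3+ T cells of mouse 1 and 16 of 23 of mouse 2. The same was true of 17 of 193 and 7 of 109 Cd4+ comparison cells, of 2 of 588 and 0 of 314 Cd8b1+ T cells, and of 3 of 1497 and 3 of 3111 Trdc+ T cells. Just inside the threshold, members with a single Foxp3 UMI met this mark in 11 of 15 and 8 of 14 barcodes, and those with at least 2 in 24 of 29 and 8 of 9. The mark was also met by T-cell barcodes without Foxp3. Of all that met it, members included, Foxp3 was seen in 36 of 72 in mouse 1 (50%, 37.98 to 62.02%). In mouse 2 it was seen in 19 of 30 (63.3%, 43.9 to 80.1%). These 36 and 19 barcodes include the 35 and 16 members above.

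Some barcodes held much RNA of other cells. In 8 members of mouse 1 and 3 of mouse 2, immunoglobulin genes, which mark B and plasma cells, gave 27.5 to 71.5% and 60.8 to 73.9% of all UMIs. A further member of mouse 1, with 71065 UMIs, held 33.2% from 7 pancreatic acinar genes. These 12 barcodes gave 68.3% and 49.1% of the UMIs of all members, so sums over the members are diluted by them. The remaining 35 and 20 barcodes, with under 10% immunoglobulin and under 10% acinar UMIs, are called low-Ig here. Their immunoglobulin share reached at most 6.37% and 1.25%. The Cd4+ comparison cells held 68 and 17 such immunoglobulin-rich barcodes, and levels below are given for the low-Ig barcodes of both classes.

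**Figure D1:**
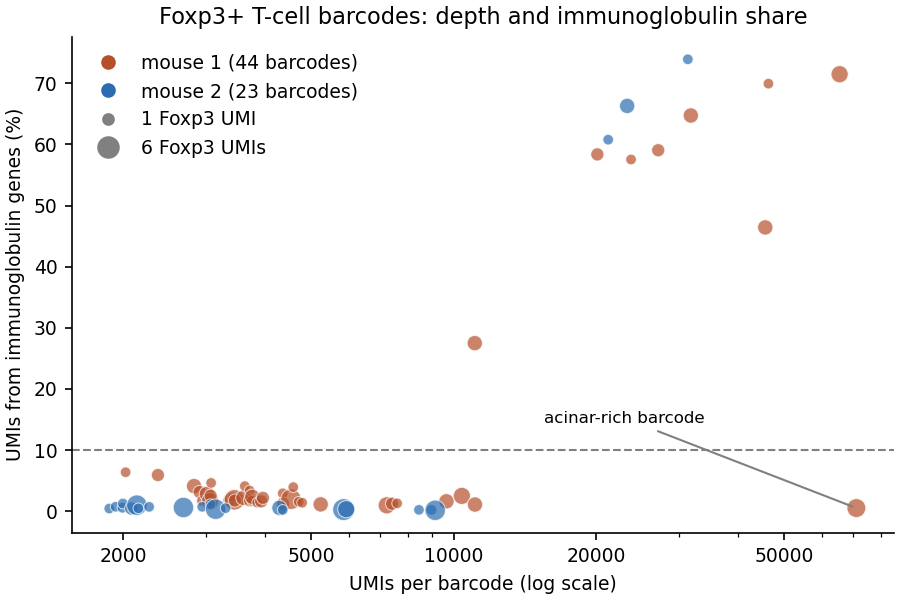
Each point is 1 Foxp3+ T-cell barcode, with its UMI count on a log axis and the percentage of UMIs from immunoglobulin genes on the vertical axis; point size grows with the Foxp3 UMI count. The 11 barcodes above the dashed 10% line lie at 27.5% or more, and the acinar-rich barcode with 71065 UMIs lies at the lower right.

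For each gene, UMIs were summed per mouse and class, and Foxp3+ T cells were tested against Cd4+ comparison cells with edgeR's quasi-likelihood test over 10145 genes. With all members, 3 genes were higher in Foxp3+ T cells at an adjusted p under 0.05, which is 0.0296% of the genes tested, and 0 were lower (0%). At an unadjusted p under 0.05, 399 were higher and 607 lower, and DESeq2 called 78 higher and 41 lower. The sums of a mouse come from the same animal, and with the mouse as a block the counts were 141 higher (1.39%) and 110 lower (1.08%). In the low-Ig barcodes, 26 of 9093 genes were higher (0.286%) and 15 lower (0.165%), and with the block 94 (1.03%) and 95 (1.04%). These shares over all genes belong beside each count of called list genes below. All 3 genes called with every member were also called in the low-Ig barcodes. Of the 251 genes called with the block over all members, 147 (58.6%) were among the 189 called with it in the low-Ig barcodes, of which they made up 77.8%. The 251 included 30 pancreatic secretory and Reg genes, all higher, and 6 higher and 17 lower immunoglobulin genes; their part in the other calls was not tested. Below, p is adjusted by the method of Benjamini and Hochberg over all genes of the fit, and fold changes are log2 values ± SE. This SE was worked back from the fold change and the F statistic of the test, and was not estimated directly. The median over all genes was -0.10 with all members, so a value of 0 lies slightly above the typical gene.

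The 3 genes called with all members, Tnfrsf4, Tnfrsf18 and Il2ra, all encode receptors. Tnfrsf4 stood at 926 CPM in the low-Ig Foxp3+ T cells of mouse 1 and 484 in mouse 2, against 31.0 and 27.6 in the Cd4+ comparison cells. Both mice lay above both comparison values, by 4.41 ± 0.42 in these barcodes (adjusted p = 0.00926) and 4.52 ± 0.38 with all members (adjusted p = 0.0110). Tnfrsf18 stood at 643 and 675 against 62.1 and 74.6, a difference of 3.10 ± 0.22 in low-Ig barcodes (adjusted p = 0.00208) and 3.10 ± 0.24 with all members (adjusted p = 0.0110). Il2ra stood at 176 and 204 against 25.1 and 30.4, a difference of 2.59 ± 0.31 in low-Ig barcodes (adjusted p = 0.0200) and 3.20 ± 0.27 with all members (adjusted p = 0.0110). The difference of Il2ra was 2.32 and no longer passed the test when barcodes were thinned to 1000 UMIs (adjusted p = 0.350). Nor did it pass, at 2.69, when barcodes with at least 2 UMIs of other-lineage markers were left out (adjusted p = 0.159). That setting kept 6 members of mouse 1 and 17 of mouse 2. The third such setting left out immunoglobulin-rich, acinar-rich and macrophage-marked barcodes and matched the comparison gate to the members, without requiring Cd4 of the members. There the difference was 2.25 (adjusted p = 0.0542). Tnfrsf4 and Tnfrsf18 passed in all 14 alternative fits.

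Tnfrsf4 and Tnfrsf18 are neighbours in the genome (GRCm38, GENCODE M21): Tnfrsf4 lies at chr4:156013843-156016612 and Tnfrsf18 at chr4:156026164-156028895, both on the plus strand and 9552 bases apart. The 250 bases before each RefSeq start (GRCm38.p6) are shown because these neighbours were called in every fit. The capital marks the last base before the start, chr4:156013445-156013694 for Tnfrsf4 and chr4:156026072-156026321 for Tnfrsf18, both on the plus strand.
Tnfrsf4: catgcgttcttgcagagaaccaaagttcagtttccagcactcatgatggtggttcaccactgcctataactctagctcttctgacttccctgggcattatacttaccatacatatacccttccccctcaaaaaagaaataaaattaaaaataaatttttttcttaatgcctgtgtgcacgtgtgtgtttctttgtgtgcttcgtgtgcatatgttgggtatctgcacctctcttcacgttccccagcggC
Tnfrsf18: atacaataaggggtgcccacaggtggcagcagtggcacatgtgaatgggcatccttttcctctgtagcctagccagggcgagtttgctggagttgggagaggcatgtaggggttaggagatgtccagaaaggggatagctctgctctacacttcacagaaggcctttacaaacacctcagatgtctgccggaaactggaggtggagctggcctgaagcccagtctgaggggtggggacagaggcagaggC
The forkhead motif TGTTTAC, the kind of site that Foxp3 and its relatives bind, was searched on both strands from 250 bases before to 50 after each start. It was in 3.65% of 32851 RefSeq promoters and in neither of these, nor in any of the 14 promoters found for 13 genes of the receptor list.

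Another 3 receptors passed the test in the low-Ig barcodes or with the block, but not in the fit over all members. Ctla4 stood at 970 and 1069 CPM against 80.0 and 135, a difference of 3.11 ± 0.44 in the low-Ig barcodes (adjusted p = 0.0287). With all members it was 2.85 ± 0.61 (adjusted p = 0.166), and with the block adjusted p was 0.00136. Icos stood at 586 and 382 against 72.8 and 91.1, a difference of 2.44 ± 0.38 (adjusted p = 0.0393 in low-Ig barcodes, 0.0813 with all members and 0.000874 with the block). Tnfrsf9 (4-1BB) stood at 535 and 445 against 23.9 and 27.6, a difference of 4.09 ± 0.49 (adjusted p = 0.0200, 0.0592 and 2.91e-05). For each of these genes both Foxp3+ values lay above both comparison values. Ctla4 and Icos lie next to each other on the plus strand of chromosome 1, at chr1:60887000-60915832 and chr1:60977927-61000320, with Cd28 at chr1:60716800-60773359 before them.

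The receptor list held 18 genes, of which 17 were tested with all members. Of these, 3 were higher, and 7 were higher with the block, where the receptor for TNF, Tnfrsf1b, joined the 6 above. None was lower. The median difference of the list was 1.99, against -0.10 over all genes, and 13 of 17 were higher in both mice, as were 20.8% of all genes tested. In low-Ig barcodes 11 of 16 were, beside 21.3% of all genes, and 2 were lower in both. Members that did not pass included Pdcd1 (PD-1), with 11 and 5 UMIs against 4 and 4, and Izumo1r (folate receptor 4), with 2.01 ± 0.66 (adjusted p = 0.352).

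**Figure D2:**
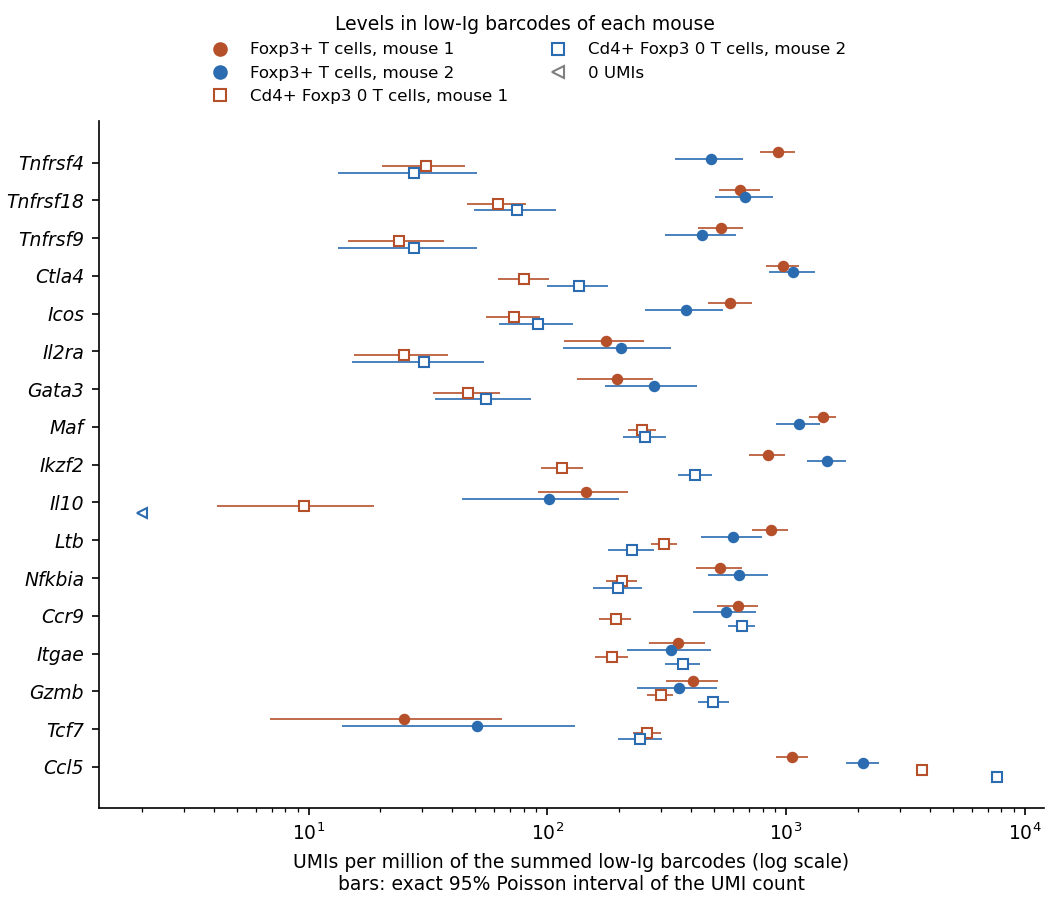
CPM of 17 genes in the summed low-Ig barcodes of each mouse, on a log axis, with exact 95% Poisson intervals; filled circles are Foxp3+ T cells and open squares are Cd4+ comparison cells. Filled and open symbols are far apart for Tnfrsf4 (926 and 484 against 31.0 and 27.6) and lie together for Gzmb (409 and 356 against 298 and 497).

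The shares of cells in which these genes were seen also lay above those of the comparison cells after thinning to equal depth. Tnfrsf4 was seen in 81.8% and 56.5% of Foxp3+ T cells and, at 1000 UMIs a barcode, in 40.2% and 28.7%, against 2.45% and 1.78% of Cd4+ comparison cells and 0.0669% and 0.0355% of B-lineage barcodes. Ctla4 was seen in 84.1% and 87.0%, or 46.0% and 48.8% when thinned, against 6.01% and 7.50% of Cd4+ comparison cells and 1.41% and 1.10% of B-lineage barcodes. Icos was seen in 35 of 44 members of mouse 1 (79.5%) and 10 of 23 of mouse 2 (43.5%), and in 36.4% and 20.5% after thinning.

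Among transcription factors, Gata3 was the only one of the 20 tested that passed in the low-Ig barcodes without the block. It stood at 195 and 280 CPM against 46.5 and 55.2, and differed by 2.01 ± 0.29 (adjusted p = 0.0287). With all members it was 2.08 ± 0.36 (adjusted p = 0.111), and with the block adjusted p was 0.000802. With the block and all members, 7 of the 20 factors were higher, beside 1.39% of all genes. Runx3, a factor of cytotoxic T cells, was lower (-1.04 ± 0.24, adjusted p = 0.0455), beside 1.08% of all genes. The gate kept Cd8b1+ and Trdc+ barcodes out of the members only. Without the block Runx3 differed by -1.15 (adjusted p = 0.332). It differed by -0.84 (adjusted p = 0.558) when both classes had to hold Cd4 and lack Cd8b1 and Trdc. The 7 were Gata3, Ikzf2, Ikzf4, Maf, Ahr, Bhlhe40 and Tox. In low-Ig barcodes with the block, Ahr (adjusted p = 0.0717) and Bhlhe40 (adjusted p = 0.0791) did not pass, and the other 5 did. Maf, which supports Il10 expression, stood at 1430 and 1133 against 251 and 257, and Ikzf2 at 838 and 1489 against 116 and 417. In these low-Ig barcodes Maf differed by 2.17 (adjusted p = 0.176, and 0.000605 with the block) and Ikzf2 by 2.03 (adjusted p = 0.229, and 0.000998 with the block). With all members Maf differed by 2.45 ± 0.58 (adjusted p = 0.218, and 0.000874 with the block) and Ikzf2 by 1.95 ± 0.71 (adjusted p = 0.399, and 0.00174 with the block). Ikzf2 was also high in another T-cell class: it stood at 549 and 907 in the sums of all Trdc+ T cells, against 375 and 849 in the sums of all Foxp3+ T cells. These sums are unequally diluted. Immunoglobulin- or acinar-rich barcodes gave 68.3% and 49.1% of the Foxp3+ UMIs, and 27.1% and 6.96% of the Trdc+ UMIs. No low-Ig value of Trdc+ T cells is given here, so the 2 classes are not ranked. The list median was 0.52 with all members.

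Gata3 was seen in 12 of 44 (27.3%, 15.0 to 42.8%) and 13 of 23 Foxp3+ T cells (56.5%, 34.5 to 76.8%). Maf was seen in 39 of 44 and 19 of 23. Of the Gata3+ members, 12 of 12 and 10 of 13 held Maf and 9 of 12 and 12 of 13 held Ikzf2. Maf was thus seen in most Gata3+ members, as in the members as a whole (88.6% and 82.6%). Ikzf2 was seen in 70.5% and 78.3% of all members. In the list of the thymic-type programme, 5 of 8 genes were tested, none passed with all members, and Gata3, Ikzf2 and Klrg1 were higher with the block, of which Gata3 and Ikzf2 also passed with it in low-Ig barcodes.

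Most effector genes described here were seen in few cells. Il10 was seen in 10 of 44 and 3 of 23 Foxp3+ T cells, against 5 of 193 and 0 of 109 Cd4+ comparison cells. All 13 Il10+ members also held Maf, which was seen in 88.6% and 82.6% of all members. Il10 gave 28 and 8 UMIs against 10 and 0, and passed with the block but not in the fit without it (adjusted p = 0.00965 and 0.161). Without a block, Il10 also passed with DESeq2 (adjusted p = 0.00148) and in edgeR without the filter on low counts (adjusted p = 3.18e-07). Areg, a growth factor for epithelium, was seen in 8 of 44 and 3 of 23 members, with 9 of its 20 UMIs in a single cell of mouse 1 and 12 of 15 in a single cell of mouse 2. It did not pass in the fit over all members (adjusted p = 0.604). Klrg1, a receptor of terminally differentiated lymphocytes, was seen in 8 and 4 members, of which 6 and 3 also held Gata3. It gave 13 and 8 UMIs against 9 and 1 and passed with the block over all members (adjusted p = 0.0214, and 0.137 without), but not with it in low-Ig barcodes (adjusted p = 0.114). Il1rl1, the receptor for interleukin-33, was seen in 2 and 1 members. Of the 12 effector genes tested, none passed with all members, and the list median was 1.18. With the block, Il10, Nt5e (CD73) and Penk (proenkephalin) were higher, beside 1.39% of all genes. In low-Ig barcodes with the block the calls were Il10 and Lgals1 (galectin-1), and Nt5e did not pass (adjusted p = 0.0877). Lgals1 was seen in 31 of 44 and 12 of 23 members and stood at 769 and 471 CPM in low-Ig barcodes against 118 and 257 (1.80 ± 0.35 with the block, adjusted p = 0.0143). For Penk, only 5 of 54 UMIs of mouse 1 were in low-Ig barcodes, 36 lay in a single cell, and mouse 2 held 1 UMI. Gzmb, a granzyme that was common in the comparison cells, stood at 409 and 356 CPM against 298 and 497 in low-Ig barcodes. The groups overlapped, and the difference was -0.18 ± 0.20 there (adjusted p = 0.909) and -0.28 ± 0.28 with all members (adjusted p = 0.817).

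**Figure D3:**
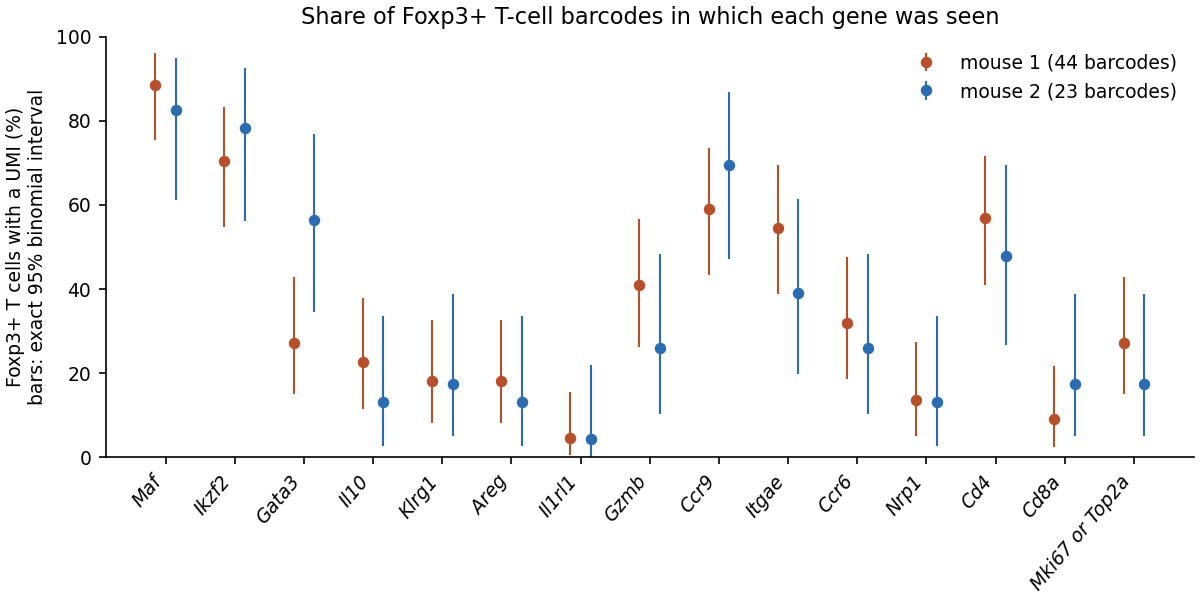
Percentage of Foxp3+ T-cell barcodes in which each gene was seen with at least 1 UMI, for mouse 1 (44 barcodes) and mouse 2 (23 barcodes), with exact 95% binomial intervals. Maf (88.6% and 82.6%) and Ikzf2 (70.5% and 78.3%) were seen in most barcodes, Il1rl1 (4.55% and 4.35%) in few.

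Helper cytokines gave few UMIs in Foxp3+ T cells. The sums of these cells were also smaller, at 500984 and 154361 UMIs against 2918261 and 769389 in the Cd4+ comparison cells. Il17a gave 1 and 0 UMIs in all members, against 187 and 10 in the Cd4+ comparison cells. There 7 and 3 cells held it, with 104 of the 187 UMIs in a single cell of mouse 1. It passed with the block but not in the fit without it (adjusted p = 0.0269 and 0.649). Without a block, Il17a also passed in edgeR without the filter on low counts (adjusted p = 7.34e-08), but not with DESeq2 (adjusted p = 0.892). Il17f, Il22, Il2 and Tnf gave 0 UMIs in the members of both mice, and 21 and 0, 7 and 2, 5 and 1, and 6 and 1 in the comparison cells. All 7 Il22 UMIs of mouse 1 lay in 1 comparison cell. A count of 0 allows up to 3 and the sums are unequal, so these zeros are not read as lower levels. Ifng gave 2 and 0 against 18 and 4 (adjusted p = 0.784). Ccl5, a chemokine of cytotoxic T cells, stood at 1065 and 2100 CPM against 3705 and 7659. Of its low-Ig member UMIs, 92 of 169 in mouse 1 and 94 of 165 in mouse 2 lay in a single cell each. Ccl5 was lower in low-Ig barcodes (-2.003 ± 0.30, adjusted p = 0.0332). With all members the difference was -2.27 ± 0.41 (adjusted p = 0.125), and adjusted p was 0.00011 with the block. Ccl5 RNA was also seen in 57.5% and 39.6% of B-lineage barcodes, or 6.004% and 4.61% after thinning, against 17.4% and 34.5% of members after thinning. In the list of 20 helper cytokines and factors, 10 were tested, none passed with all members, and Il17a, Ccl5 and the chemokine Ccl4 were lower with the block, with a list median of -1.54. Ccl4 did not pass with the block in low-Ig barcodes (adjusted p = 0.0709).

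The classes differed in their gates and in RNA of other cells. The gate kept Cd8b1+ and Trdc+ barcodes out of the members but not out of the comparison cells, where Cd8a was seen in 33.7% and 52.3%. The Cd4+ comparison cells also held macrophage RNA: a list of 7 macrophage genes gave 2303 and 998 UMIs in them, with all 7 genes seen, against 4 and 7 in the members, where C1qa and C1qc were at 0. The part of these differences in the results was not tested. Lyz2, Apoe and Mpeg1, genes of macrophages that were named after their values were seen, were among the 15 lower genes of the low-Ig barcodes. When Cd4 was required of both classes and Cd8b1 and Trdc of neither, 3 genes were higher and 1 lower, and Ccl5 differed by -3.71 (adjusted p = 0.0791).

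Genes of naive and circulating T cells were split. Tcf7, a factor of naive and memory T cells, gave 4 and 4 UMIs in low-Ig Foxp3+ T cells against 219 and 89 in the comparison cells. It was lower in low-Ig barcodes (-3.06 ± 0.33, adjusted p = 0.0200), and the difference with all members was -2.60 ± 0.48 (adjusted p = 0.129, and 0.00201 with the block). It was -3.70 in mouse 1 alone and -1.47 in mouse 2 alone. Tcf7 was also lower when macrophage-marked barcodes were left out as well and the comparison gate was matched to the members (-3.55, adjusted p = 0.0148). Lef1 showed no difference past the test (-0.08 ± 0.53, adjusted p = 1), with 17 and 6 UMIs against 123 and 15. Il7r, the interleukin-7 receptor, is known to be low on many regulatory T cells. It was not lower here, at 832 and 1145 CPM against 426 and 583 (0.80 ± 0.31, adjusted p = 0.333 in low-Ig barcodes, and 1.01 ± 0.35, adjusted p = 0.375 with all members). Of the 13 genes of this list, 0 passed with all members, with a median of -0.34.

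Homing genes gave no call with all members. The list median was 0.07. In both mice 7 of 16 genes were higher and 5 lower, beside 20.8% and 34.7% of all genes. Ccr9, the receptor that draws lymphocytes to the small intestine, was seen in 26 of 44 and 16 of 23 Foxp3+ T cells and stood at 630 and 560 CPM against 193 and 655, so the comparison values lay on either side. The difference was 0.42 ± 0.41 in low-Ig barcodes (adjusted p = 0.769) and 0.07 ± 0.39 with all members (adjusted p = 1). Itgae (CD103), an integrin that binds epithelial E-cadherin, stood at 353 and 331 against 187 and 370, and the difference was 0.18 ± 0.24 in low-Ig barcodes (adjusted p = 0.839) and -0.07 ± 0.35 with all members (adjusted p = 0.998). For both genes the sign of the difference changed with the setting. With the block, 4 of the 16 genes tested were higher, namely Ccr2, Ccr4, Ccr6 and Cxcr4, and Ccr1 was lower. Over all genes the shares were 1.39% and 1.08%. Ccr6 did not pass with the block in low-Ig barcodes (1.89 ± 0.68, adjusted p = 0.212), and the other 4 did. Ccr4 is a receptor of skin- and tissue-homing T cells. It gave 19 and 5 UMIs in all members against 6 and 3 in the comparison cells, out of 40 and 15 UMIs in all kept barcodes (3.61 ± 0.66, adjusted p = 0.125, and 0.0226 with the block). Cxcr4 gave 16 and 25 UMIs against 30 and 9, with 13 of the 25 in a single cell of mouse 2.

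Targets of these receptors were read from 2 lists. Of 13 genes known to respond to TNF-family receptors and NF-kappa-B, all were tested, none passed with all members, and 12 were higher in both mice, beside 20.8% of all genes. In low-Ig barcodes 8 of 13 were, beside 21.3%. With the block over all members, 4 were higher, beside 1.39% of all genes: Nfkbia and Tnfaip3, feedback inhibitors of NF-kappa-B, the adaptor Traf1 and the cytokine Ltb. Nfkbia stood at 529 and 636 CPM against 205 and 199, and passed in the low-Ig barcodes (1.32 ± 0.21, adjusted p = 0.0426). With all members it differed by 1.01 ± 0.41 (adjusted p = 0.475). Ltb stood at 863 and 598 against 309 and 226. It differed by 1.26 ± 0.32 in these barcodes (adjusted p = 0.169, and 0.00109 with the block) and by 1.53 ± 0.25 with all members (adjusted p = 0.0886, and 0.000125 with the block). The list median was 0.98. Of 12 genes tested in the list of IL-2 and STAT5 targets, Il2ra passed with all members. With the block, Cish, an inhibitor of cytokine signalling, was also higher (1.33 ± 0.27, adjusted p = 0.0233, and 0.0659 with it in low-Ig barcodes) and the survival gene Bcl2 was lower (-1.17 ± 0.20, adjusted p = 0.00719).

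The decamer motif of NF-kappa-B (kappa-B), searched on both strands in the same windows, was in 0.411% of 32851 promoters and in 4 of 14 promoters of the NF-kappa-B list, those of Ltb, Nfkb2 and Nfkbia. It was in none of the receptor list. The list was drawn up from known NF-kappa-B targets, so this count describes the list and does not bear on these cells. The 250 bases before the start of Ltb (chr17:35194257-35194506, plus strand) and Nfkbia (chr12:55492648-55492897, minus strand) are shown because both genes passed with the block, with the motif in capitals.
Ltb: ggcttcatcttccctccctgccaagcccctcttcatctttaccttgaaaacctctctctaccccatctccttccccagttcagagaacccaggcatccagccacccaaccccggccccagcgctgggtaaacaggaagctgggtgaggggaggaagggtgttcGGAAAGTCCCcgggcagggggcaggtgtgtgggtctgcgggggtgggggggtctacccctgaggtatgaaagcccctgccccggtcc
Nfkbia: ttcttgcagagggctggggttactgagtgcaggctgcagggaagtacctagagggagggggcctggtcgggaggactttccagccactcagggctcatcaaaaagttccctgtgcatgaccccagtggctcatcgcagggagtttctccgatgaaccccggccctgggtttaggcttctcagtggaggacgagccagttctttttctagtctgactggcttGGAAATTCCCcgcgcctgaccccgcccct
The last base of the motif lies 78 bases before the start in Ltb and 20 before it in Nfkbia. The Ltb promoter also holds 1 forkhead motif, which does not overlap the capitals.

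Genes outside the lists that passed in the low-Ig barcodes are named here after their values were seen. Arl5a, a small GTPase, stood at 384 and 344 CPM against 53.7 and 58.0 (2.53 ± 0.22, adjusted p = 0.00589). Hif1a, the oxygen-sensing factor, differed by 1.48 ± 0.17 (adjusted p = 0.0200) and Hopx by 1.94 (adjusted p = 0.0234). Both Foxp3+ values of Arl5a lay above both comparison values. Dst, a cytoskeletal linker, gave 41 and 19 UMIs in all members against 20 and 10 and was seen in 25 and 11 of them (3.36 in low-Ig barcodes, adjusted p = 0.0271). Titin (Ttn), known from muscle, gave 50 and 55 UMIs against 12 and 14 and was seen in 12 and 11 members (4.57, adjusted p = 0.0332). With all members adjusted p was 0.0592 for Arl5a and Hif1a, 0.0813 for Hopx, 0.0796 for Dst and 0.130 for Ttn.

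Other programmes gave no call with all members. Of 13 genes of antigen-receptor activation, 0 passed, with a median of -0.08, and Fosb was lower with the block over all members but was no call with it in low-Ig barcodes. None of 12 cell-cycle genes passed with or without the block. Mki67, a marker of cycling cells, gave 66 and 4 UMIs, of which 42 were in a single cell of mouse 1, and Mki67 or Top2a was seen in 12 of 44 and 4 of 23 members. Mki67 itself was seen in 8 and 3 members, of which 4 and 2 were low-Ig barcodes. It was seen in 26 of 193 and 10 of 109 Cd4+ comparison cells. Methionine-cycle genes, the subject of the study, were barely measurable: 7 of 13 were tested and none passed with or without the block, with a median of -0.49. Mat2a, which makes S-adenosylmethionine, gave 23 and 3 UMIs against 143 and 39 (-0.51 ± 0.40, adjusted p = 0.749), and Ahcy gave 4 and 0 UMIs in the members.

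**Figure D4:**
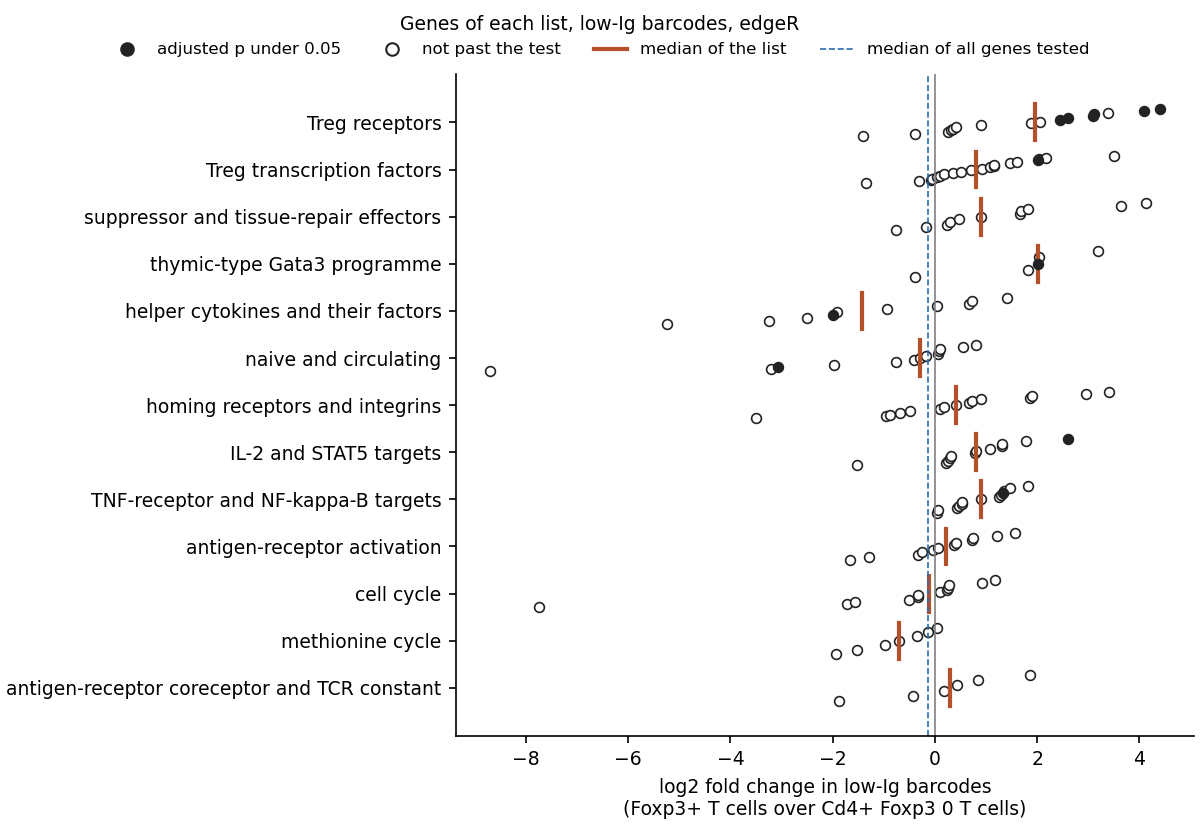
Log2 fold change of each tested gene of 13 lists in low-Ig barcodes, Foxp3+ T cells over Cd4+ comparison cells; filled points passed the test, the thick line is the median of the list and the dashed line the median of all 9093 genes. The receptor list holds 6 filled points, more than any other list, and points far to the left are genes with few UMIs in the members, whose fitted value depends on the prior count.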

How the data were processed

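Cells were sorted on DAPI and captured by the authors with 10x 3′ v3 chemistry, and their deposited matrices hold unnormalised UMI counts (Cell Ranger 6.1.2, mm10, per the labels; the annotation release is not given in the sources used here). Barcodes with over 100 genes, over 400 UMIs, under 5% mitochondrial and under 10% haemoglobin UMIs were kept. Doublets were kept, as the methods name no removal. Counts were summed per mouse for Foxp3+, Cd4+, Cd8b1+ and Trdc+ T cells, scaled by TMM, filtered with filterByExpr and fitted with edgeR 4.0.16 (R 4.3.3), classes sharing 1 estimate of the spread and the 8 gate genes left untested. The test was checked on simulated counts. With all members, 59.7% of genes changed by 2 and 85.6% of those changed by 3 on the log2 scale were called, against 6.06% of those changed by 1. Only genes above a minimum level were changed. Each sum was drawn independently from class means, with no shared mouse and no single barcodes rich in RNA of other cells. These shares therefore do not give the power in the real sums. DESeq2 1.42.0 was an alternative.

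Named genes were those of the marker and gene lists and, by rule, called genes of at least 20 UMIs that moved 1 way in both mice, which gave Tnfrsf4, Tnfrsf18 and Il2ra. The Foxp3+ gate, the markers and the lists were chosen with earlier results of these data known, and the low-Ig barcodes after seeing the data. Same-numbered sums come from the same animal, and the deviations of Foxp3+ and Cd4+ sums from their class means correlated by 0.246. Nothing states whether the 2 mice shared a litter or a day. Positions are GENCODE M21 and promoters RefSeq, both GRCm38, matched by ID and symbol. Promoters were found for 13 of 18 receptor genes and 10 of 13 NF-kappa-B genes. Icos, Il2rb, Lag3, Cd83 and Cd200r1 had no entry. Some genes of the lists are not reported here.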

Additional observations from a re-analysis of the deposited data

Results flagged for a closer look

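Foxp3 molecules were also seen in barcodes that the comparisons did not use, where a count of 0 would allow up to 3. Kept barcodes outside the gate held 12 Foxp3 UMIs in 5 barcodes of mouse 1 and 20 in 11 barcodes of mouse 2. Of these barcodes, 2 and 7 held Trdc and 2 and 3 held no Ptprc or no CD3 UMI. Among the 3 and 7 T-cell barcodes with Trdc or Cd8b1, 1 and 3 held at least 3 of the 5 receptor genes. Barcodes removed by the filters held 4 Foxp3 UMIs in mouse 1 and 9 in mouse 2.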

How the results depend on the processing

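The count of genes higher and lower in Foxp3+ T cells depended on the processing. Beside 3 higher and 0 lower, it was 180 and 292 when low counts were not filtered, 141 and 110 under a replicate block by mouse, 12 and 14 with only the compared classes, 7 and 4 with barcodes of at least 2000 UMIs, 5 and 2 after thinning, 9 and 3 without other-lineage barcodes, and 78 and 41 with DESeq2. With matched gates 3 were higher and 1 lower. Among alternatives chosen after seeing the data, it was 26 and 15 in low-Ig barcodes, and 94 and 95 there with the replicate block. It was 8 and 1 when macrophage-marked barcodes were also left out and the comparison gate was matched to the members. With immunoglobulin and acinar genes left out of the counts it was 6 and 4. The share among T-cell barcodes was 0.254% after thinning, and 0.424% to 1.19% leaving out each mouse in turn. Leaving out a mouse leaves no residual degrees of freedom, so it gave values and no test.

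None of the values that changed sign passed a test. Itgae changed to 0.039 with the replicate block, 0.25 with at least 2 Foxp3 UMIs, 0.066 without other-lineage barcodes, 0.18 in low-Ig barcodes, 0.24 there with the block and 0.32 without macrophage-marked barcodes. In the last setting Gzmb was 0.022. Areg was -0.0332 with matched gates and -0.26 after thinning, Ccr9 -0.056 with at least 2 Foxp3 UMIs, and Mki67 -0.85 without other-lineage barcodes. The causes were not tested. The sums rest on 67 Foxp3+ T cells from 2 mice, and even in the simulated counts changes of 1 on the log2 scale were mostly not called.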
